A study of Homo sapiens with 10 samples.

Results

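The RNAs described here are 10 long noncoding RNAs (lncRNAs) that many human cells make in large amounts or that are widely studied in cancer, namely MALAT1, NEAT1, NORAD, KCNQ1OT1, GAS5, SNHG1, SNHG12, H19, OIP5-AS1 and MIAT. They were taken by name from a list, and all 10 were found by Ensembl identifier among the 58037 gene identifiers of the expression tables. Measurements came from the human lung adenocarcinoma line A549 and its cisplatin-resistant derivative A549/DDP. Each line had 2 input libraries (RNA not pulled down) and 2 m6A-seq libraries, in which RNA fragments were captured with an antibody against N6-methyladenosine (m6A). A549 cells were bought and the A549/DDP cells were a gift from another laboratory, and both were grown in RPMI medium with serum for at most 10 passages. No cisplatin is named in the growth notes of these libraries, no genetic change is given, and whether A549/DDP is 1 clone is not given. The labels call both lines lung epithelial, name the line of the A549/DDP inputs as A549, and were read for resistance from the title and the cell type. A second pair of A549 inputs, told apart from the first only by a full stop in the title, was kept for comparison.

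An lncRNA acts as an RNA and is not translated into a known protein. MALAT1 lies in nuclear speckles, which store splicing factors, and NEAT1 is the scaffold of paraspeckles, nuclear bodies that hold RNA-binding proteins. GAS5, SNHG1 and SNHG12 are host genes: their introns carry small nucleolar RNAs (snoRNAs), which guide the modification of ribosomal RNA, and their spliced RNAs are commonly removed by nonsense-mediated decay. NORAD binds Pumilio proteins in the cytoplasm, OIP5-AS1 (the human cyrano) is a cytoplasmic antisense RNA, H19 and KCNQ1OT1 come from the imprinted region at 11p15.5, and MIAT is a nuclear RNA best known from nervous tissue. m6A is placed on nascent RNA by a methyltransferase complex within short motifs, of which GGACU is a well-known form, and several of these lncRNAs are known carriers of the mark.

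Total expected counts were 29225501 to 35286514 in the 4 first inputs, against 855034 and 982036 in the second pair of A549 inputs, where mitochondrial genes held 75.2% and 73.9% of the counts (0.04% to 0.05% in the others). The second pair therefore stands apart, and values from it are named as such. The keratins KRT8 and KRT18, markers of epithelial cells, ranged from 1591 to 9891 TPM in the 4 first inputs, while the epithelial marker EPCAM was at 2.45 to 6.95 TPM. Of 6 epithelial markers, edgeR called 3 higher in A549/DDP (KRT8, KRT18 and CDH1, at log2 fold changes of 1.57, 1.19 and 2.26) and KRT7 lower (-1.66). KRT19 was at 33.3 and 64.0 TPM in A549 and at 9.24 and 0 TPM in A549/DDP, and did not pass the test. Of 4 mesenchymal markers, 1 was called lower (CDH2, -1.82). The part of these markers in the lncRNA results was not tested. The blood markers PTPRC and CD3E and the endothelial markers PECAM1, CDH5 and VWF were each at or under 0.39 TPM, with CD3E listed at 0 in all 4. Of the other blood markers, CD14 was at 0.6 and 0.03 TPM in A549 and at 1.46 and 4.86 TPM in A549/DDP, and HBB was listed at 0 in all but A549/DDP replicate 1 (0.52 TPM). The 10 lncRNAs together held 0.25% and 0.265% of the counts in the A549 inputs and 0.16% and 0.155% in the A549/DDP inputs.

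Some sequences give the places the measurements turn on. All were read from RefSeq tables of build GRCh38.p14, the coordinates of which are those of hg38. Called m6A peaks in H19 lay over the hairpin of the microRNA gene MIR675, at chr11:1996759-1996831 on the minus strand. Of the 1562 hairpins read, it was the only one inside the span of any of the 10 genes. MicroRNAs outside that set were not looked for. The motif GGACU is in capitals in the hairpin, and the seed (bases 2 to 8) is in capitals in the mature microRNAs, which have different seeds.
MIR675 hairpin: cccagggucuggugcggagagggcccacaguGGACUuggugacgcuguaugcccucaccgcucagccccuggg
hsa-miR-675-5p: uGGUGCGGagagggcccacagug
hsa-miR-675-3p: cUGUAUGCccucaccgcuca

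GGACU stood once in the hairpin, from its base 32. Of the 1562 hairpins in the table, 138 (8.83%) held GGACU on the hairpin strand and 105 (6.72%) held it on the other strand, so its presence here is a description only.

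In NORAD and OIP5-AS1, called peaks began 50 bases after a RefSeq start, and in MALAT1 the most upstream peak began 60 bases after a RefSeq start inside the gene. These starts are shown with 50 bases on each side, and the bases downstream of the start are in capitals. The windows lie at chr20:36050911-36051010 on the minus strand, chr15:41283940-41284039 on the plus strand and chr11:65498995-65499094 on the plus strand.
NORAD: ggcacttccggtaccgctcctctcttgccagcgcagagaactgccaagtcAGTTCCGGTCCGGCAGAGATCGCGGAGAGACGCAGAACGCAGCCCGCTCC
OIP5-AS1: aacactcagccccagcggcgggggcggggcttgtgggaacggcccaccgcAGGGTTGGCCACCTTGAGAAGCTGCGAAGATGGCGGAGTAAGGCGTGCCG
MALAT1: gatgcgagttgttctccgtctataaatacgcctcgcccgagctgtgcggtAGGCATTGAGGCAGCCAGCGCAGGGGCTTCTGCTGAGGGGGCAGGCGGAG

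The 3 snoRNA host genes are shown because each had less RNA in both A549/DDP inputs than in both A549 inputs. How many of all genes separate in this way was not counted. Transcripts of many snoRNA host genes begin in a run of pyrimidines. The longest run of C and T between 20 bases before and 50 bases after the start is in capitals (the first where runs tie). The windows lie at chr11:62855836-62855935, chr1:28581824-28581923 and chr1:173868996-173869095, all on the minus strand.
SNHG1: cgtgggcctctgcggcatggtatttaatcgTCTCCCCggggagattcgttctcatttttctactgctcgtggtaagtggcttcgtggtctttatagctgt
SNHG12: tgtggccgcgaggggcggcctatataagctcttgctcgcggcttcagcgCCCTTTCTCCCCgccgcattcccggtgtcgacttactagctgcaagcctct
GAS5: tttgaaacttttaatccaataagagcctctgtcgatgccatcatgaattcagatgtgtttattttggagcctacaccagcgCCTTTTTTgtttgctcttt

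The run of SNHG12 was 12 bases long, began 1 base before the start and was matched or exceeded in 6.05% of the 35116 starts in the table. The runs of SNHG1 (7 bases) and GAS5 (8 bases) were matched or exceeded in 37.6% and 26.0% of starts. The marked run of SNHG1 began 20 bases before the start, outside the transcript, and that of GAS5 at base 32 of the transcript. An equally long run of SNHG1 just after its start, TTTTTCT, is not in capitals. The capitals of SNHG1 and GAS5 therefore do not mark how a transcript begins. RefSeq lists 50 transcripts for GAS5, and the start in the table is only 1 of their starts. NEAT1 and KCNQ1OT1 are named only.

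Levels between genes were compared as TPM, the deposited estimate per transcript length. In the A549 inputs, NEAT1 led with 718 TPM ± 175 (SD, n = 2), followed by SNHG1 with 577 ± 61.3, GAS5 with 407 ± 58.7 and MALAT1 with 305 ± 6.36. The ranges of NEAT1 and SNHG1 overlapped, so their order did not hold over the libraries, whereas GAS5 stood above MALAT1 in both. NORAD (83.1 TPM ± 6.39) and SNHG12 (65.3 ± 9.32) came next, without overlap, and OIP5-AS1 (38.4 ± 2.79) and H19 (13.6 ± 5.23) were lower.

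In the A549/DDP inputs, NEAT1 led again with 378 TPM ± 13.5 (SD, n = 2), and MALAT1 followed with 205 ± 50.6, SNHG1 with 158 ± 12.7 and GAS5 with 155 ± 25.9. The range of GAS5 overlapped those of MALAT1 and SNHG1, so the order of these RNAs did not hold over the libraries. NORAD followed with 94.6 TPM ± 2.5. OIP5-AS1 (37.2 ± 5.52), H19 (35.7 ± 12) and SNHG12 (33.0 ± 3.08) overlapped in their ranges.

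The abundance that the group is known for did not hold for KCNQ1OT1 and MIAT. KCNQ1OT1 was at 0.05 and 0.03 TPM in A549 and at 0.39 and 0.08 TPM in A549/DDP, and MIAT at 0.19 and 0.72 TPM in A549 and 0.17 and 0 TPM in A549/DDP. Neither reached 1 TPM in any library, while the leading 4 lay among the 1314 most abundant genes by TPM in each of the 4 first inputs. Summed over the 10 lncRNAs, the level was 2169 and 2245 TPM in A549 and 1146 and 1048 TPM in A549/DDP, and the groups did not overlap.

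**Figure D1:**
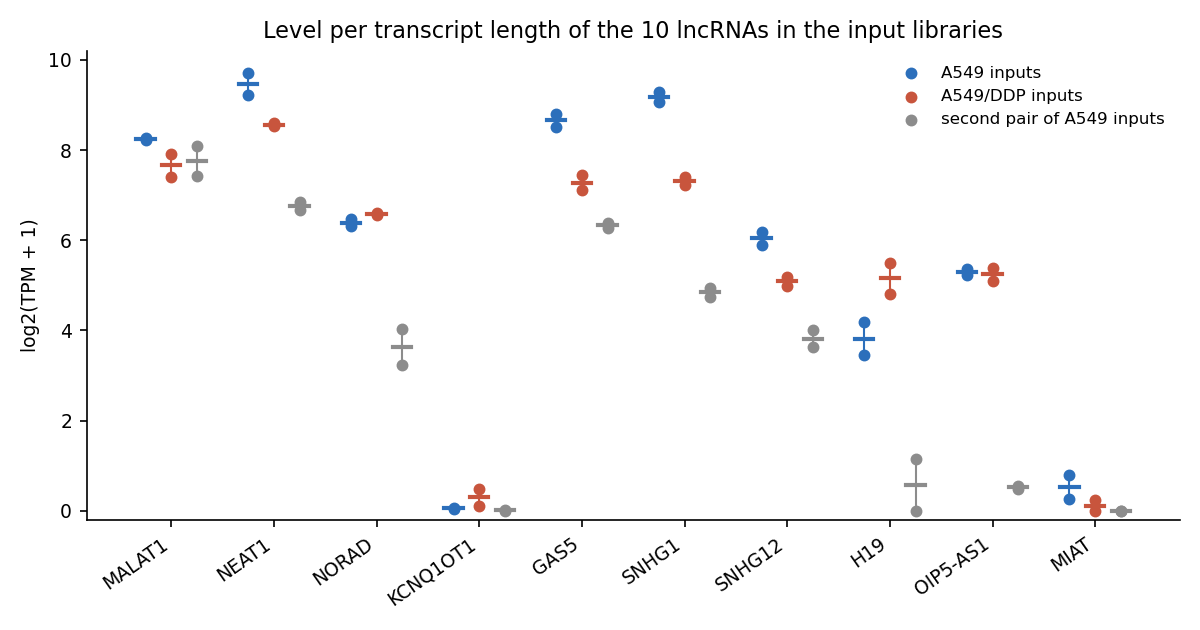
Level per transcript length, as log2(TPM + 1), of each of the 10 lncRNAs in the 2 A549 inputs, the 2 A549/DDP inputs and the second pair of A549 inputs; each point is a library and each bar the mean of 2. SNHG1, NEAT1, GAS5, SNHG12 and MALAT1 were higher in both A549 inputs than in both A549/DDP inputs, and KCNQ1OT1 and MIAT lay near 0. The share of all genes with such a separation was not counted, so it is a description only.

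To ask whether the RNAs differed between the lines, expected counts were tested in the 4 first inputs with edgeR over 16406 genes, and all 10 lncRNAs passed the filter on low counts. SNHG1, NEAT1, GAS5 and MALAT1 were lower in A549/DDP, and none of the 10 was called higher at an adjusted p under 0.05. Over all genes tested, 8% were called lower and 6.85% higher. Over the 1000 RefSeq lncRNA genes tested, 2.6% were called lower and 1.5% higher. These shares cover genes of all levels and were not matched to the levels of the 10, so they are a description only. The median log2 difference of the 10 was -0.72, against -0.002 over all genes. Over 23 other well-known lncRNAs it was -0.985, so a median under 0 is not particular to the 10. In bulk RNA, fewer cells with an RNA and less of it per cell cannot be told apart. These p-values measure the spread between 2 libraries of each line, for which separate cultures are not stated. DESeq2 called 2 of the 10 higher (H19 and KCNQ1OT1) and limma on TPM called 0 higher of the 8 it tested, KCNQ1OT1 and MIAT not among them. In edgeR both also stood higher at an unadjusted p under 0.05.

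**Figure D2:**
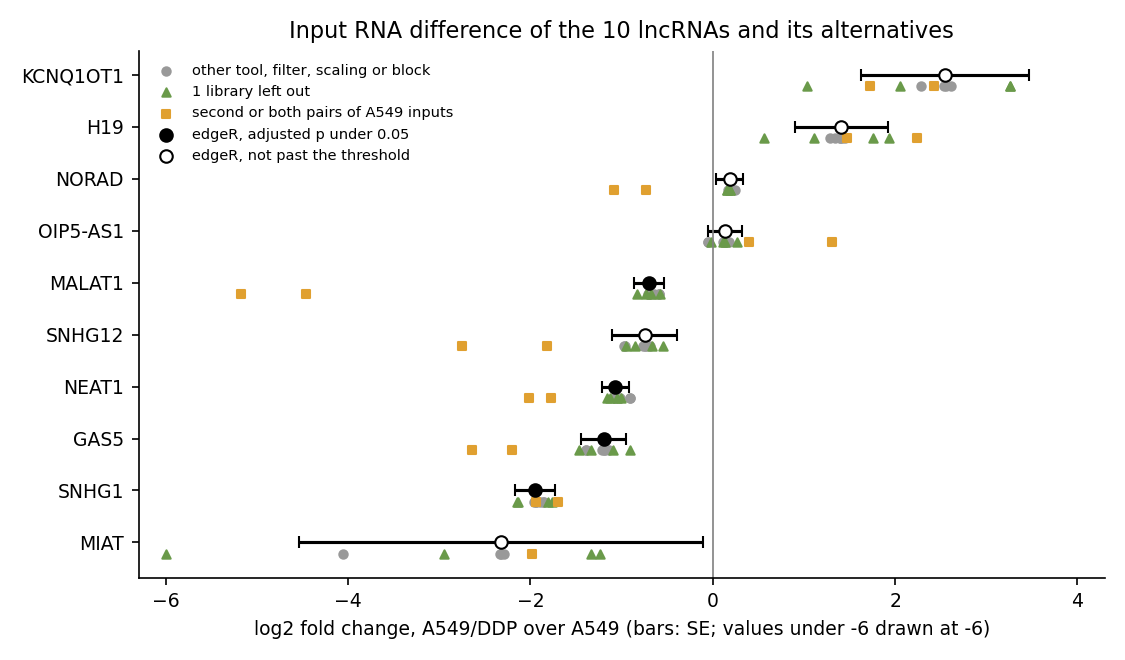
Log2 fold change of each lncRNA between the A549/DDP and A549 inputs by edgeR (circles, with SE; filled where the adjusted p was under 0.05), and the same under the alternatives (small symbols). SNHG1 at -1.95, GAS5 at -1.20, NEAT1 at -1.07 and MALAT1 at -0.69 were called lower; KCNQ1OT1, H19 and MIAT had wide errors, and the second pair of A549 inputs moved MALAT1 the most among the genes past the threshold.

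Among the RNAs past the threshold the snoRNA host SNHG1 differed most. SNHG1, whose introns carry several C/D-box snoRNAs, had 355 and 272 CPM (counts scaled to the normalized library size) in A549 and 89.8 and 72.4 CPM in A549/DDP. The groups were far apart, with a log2 fold change of -1.95 ± 0.22 (SE, adjusted p = 0.0054), and SNHG1 passed the threshold under every alternative run.

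GAS5, a host RNA that accumulates in growth-arrested cells, had 168 and 115 CPM in A549 and 56.2 and 67.1 CPM in A549/DDP. Both A549/DDP libraries were lower, with a log2 fold change of -1.20 ± 0.25 (adjusted p = 0.0275). Without A549/DDP replicate 1 the call was lost (log2 fold change -1.10, adjusted p = 0.0921), and it was also lost with both pairs of A549 inputs (adjusted p = 0.0706).

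SNHG12 had 25 and 19 CPM in A549 and 13.9 and 12.3 CPM in A549/DDP. The groups did not overlap, yet the log2 fold change of -0.75 ± 0.35 did not pass the test (adjusted p = 0.206).

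Of the 22 other snoRNA host genes on a list, 20 were tested. None was called higher by edgeR (2 at an unadjusted p under 0.05, 1 by DESeq2, 0 by limma) and 2 were called lower, with a median log2 fold change of -0.57 and a range from -2.52 to 1.41. SNHG8 fell by 1.52 on the log2 scale (43.8 and 30.6 CPM in A549, 11.1 and 14.9 in A549/DDP, adjusted p = 0.0365). SNHG17 fell by 1.44 (83.6 and 56.2 CPM against 27.3 and 24.1, adjusted p = 0.0227). The count of lower genes depended on single libraries: it was 1 without A549 replicate 1, 9 without A549 replicate 2 and 1 without A549/DDP replicate 2.

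**Figure D3:**
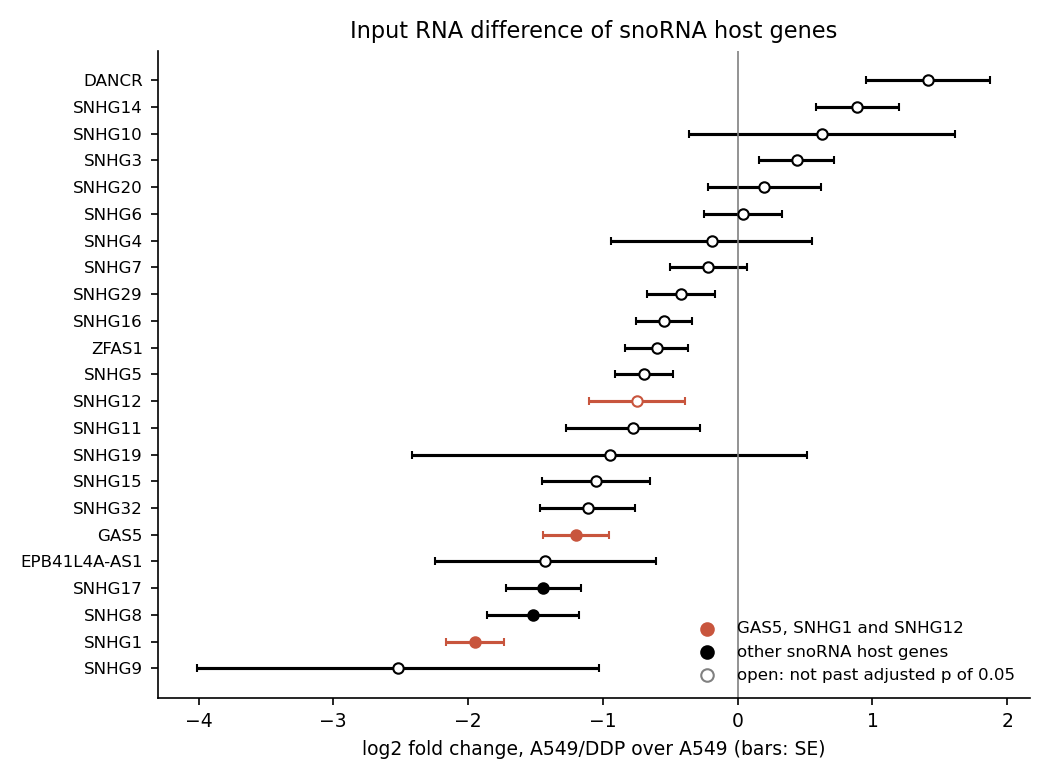
Log2 fold change with SE between A549/DDP and A549 inputs for 23 snoRNA host genes, with GAS5, SNHG1 and SNHG12 in red; filled points had an adjusted p under 0.05 in edgeR. SNHG1, SNHG8, SNHG17 and GAS5 were called lower, and no host gene was called higher.

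Because spliced host RNAs are known targets of nonsense-mediated decay, 10 factors of that pathway were tested beside them. None was called higher by edgeR (1 at an unadjusted p under 0.05, 0 by DESeq2 and limma) and 3 were called lower. Over all genes tested, 8% were called lower, a share not matched for level. UPF3B, which joins the exon junction complex to the decay factors, had 173 and 161 CPM in A549 and 31.0 and 50.1 CPM in A549/DDP, with a log2 fold change of -2.04 ± 0.27 (adjusted p = 0.00843). SMG1, the kinase of UPF1, fell by 0.91 (adjusted p = 0.0166), and UPF2 fell by 0.72 (adjusted p = 0.0439). UPF1 itself, the central helicase, had a log2 fold change of 0.17 (adjusted p = 0.579). Only 1 of the 10 was called lower when either A549/DDP library was left out.

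NEAT1 and MALAT1 are neighbours on chromosome 11 and scaffold different nuclear bodies. NEAT1 (chr11:65422798-65445540) had 1173 and 1300 CPM in A549 and 602 and 575 CPM in A549/DDP. The libraries of each line lay close together and the lines apart, with a log2 fold change of -1.07 ± 0.15 (adjusted p = 0.00929). Without A549/DDP replicate 2 the difference was -1.05 and the adjusted p was 0.0512. With both pairs of A549 inputs the adjusted p was 0.104, and in limma on log2(TPM + 0.1) it was 0.0576.

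MALAT1 (chr11:65497738-65506516) had 569 and 477 CPM in A549 and 316 and 330 CPM in A549/DDP, again without overlap. Its log2 fold change of -0.69 ± 0.16 passed the threshold narrowly (adjusted p = 0.0406). Leaving out A549/DDP replicate 1 gave an adjusted p of 0.201 and leaving out A549/DDP replicate 2 gave 0.174. The call was also lost in both limma fits on TPM (log2 difference -0.59, adjusted p = 0.155 and 0.162), and pooling the second A549 pair with the first gave an adjusted p of 0.123. FRMD8, a protein-coding gene beside this locus, had a log2 fold change of 0.68 and did not pass the test (adjusted p = 0.188). The antisense RNA of MALAT1, TALAM1, was not matched to an identifier.

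Among 14 proteins of paraspeckles, 2 were called higher and 1 lower, with a median of -0.10. The count of higher proteins was 0 in limma and 1 to 3 with 1 library left out, and the count of lower ones was 4 without either A549 library and 0 without either A549/DDP library. RBM14, an RNA-binding coactivator needed for paraspeckles, had 32.2 and 37.4 CPM in A549 and 92.4 and 81.3 CPM in A549/DDP, a log2 fold change of 1.32 (adjusted p = 0.0138). HNRNPH3, another paraspeckle protein, fell by 1.05 (adjusted p = 0.0478). SFPQ and NONO, the core proteins that bind NEAT1, had log2 fold changes of -0.57 (adjusted p = 0.0749) and 0.24 (adjusted p = 0.338).

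Of 9 proteins of nuclear speckles or bound to MALAT1, 3 were called lower and none higher by edgeR. Over all genes tested, 8% were called lower, a share not matched for level. None of the 9 was higher at an unadjusted p under 0.05, by DESeq2 or by limma. METTL16, a methyltransferase known to bind the triple helix at the MALAT1 end, had 190 and 149 CPM in A549 and 80.1 and 58.3 CPM in A549/DDP (log2 fold change -1.29, adjusted p = 0.0198). The speckle proteins PNN and SRSF3 fell by 0.98 (adjusted p = 0.0136) and 0.82 (adjusted p = 0.0323). The count was 7 without A549 replicate 2, 1 without A549/DDP replicate 1 and 0 without A549/DDP replicate 2.

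NORAD and OIP5-AS1 showed little difference between the lines in the first inputs. NORAD (chr20:36045618-36050960) had 284 and 277 CPM in A549 and 315 and 324 CPM in A549/DDP, a log2 fold change of 0.19 ± 0.15 (adjusted p = 0.463). The A549/DDP libraries were both slightly higher, by less than the fit could separate. PUM2, a Pumilio protein that binds NORAD, had a log2 fold change of -0.67 (adjusted p = 0.0897).

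OIP5-AS1 (chr15:41282697-41313338) had 85.3 and 104 CPM in A549 and 104 and 103 CPM in A549/DDP. The groups overlapped, with a log2 fold change of 0.13 ± 0.19 (adjusted p = 0.71) that turned to -0.05 in limma on TPM. OIP5, the gene on the opposite strand, had 7.14 and 9.62 CPM in A549 and 4.39 and 6.71 CPM in A549/DDP (log2 fold change -0.60, adjusted p = 0.587). The libraries were made strand-specific, but the strand setting of the counting is not given in the sources used here, so reads of an antisense pair cannot be told apart with certainty.

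The imprinted RNAs varied among libraries of a line. H19 had 11.6 and 18.1 CPM in A549 and 56.8 and 22.1 CPM in A549/DDP. Both A549/DDP libraries were higher, but they differed from each other by more than the A549 libraries did, and the log2 fold change of 1.41 ± 0.51 did not pass the test (adjusted p = 0.118). It passed without A549/DDP replicate 2 (1.93, adjusted p = 0.0147) and without A549 replicate 2 (1.76, adjusted p = 0.0058). Without A549/DDP replicate 1 it was 0.56 (adjusted p = 0.483), so that library decides its size.

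KCNQ1OT1 had 3.31 and 1.44 CPM in A549 and 23.0 and 4.93 CPM in A549/DDP, from 51 to 681 expected counts a library. A549/DDP replicate 1 again stood out, and the log2 fold change of 2.55 ± 0.92 did not pass (adjusted p = 0.116). Without that library it was 1.03 (adjusted p = 0.525), and it passed without A549 replicate 1 (3.26, adjusted p = 0.0101) and without A549/DDP replicate 2 (3.26, adjusted p = 0.00883). KCNQ1OT1 is an unspliced RNA that runs antisense through an intron of KCNQ1, which itself had 35, 35, 3 and 0 expected counts in the A549 and then the A549/DDP inputs.

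A549/DDP replicate 1 also differed from replicate 2 in RNAs made by the liver and in IGF2, the growth factor gene next to H19. These genes were chosen after their values were seen, apart from IGF2. ALB was at 29.8 and 11.9 TPM in A549 and at 167 and 0.86 TPM in A549/DDP replicates 1 and 2, and APOA1 at 8.13, 3.36, 49 and 0 TPM in the same order. IGF2 was at 3.8, 4.21, 15.4 and 0.62 TPM. Their part in the H19 and KCNQ1OT1 values was not tested.

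Of the 9 genes listed for the 11p15.5 imprinted region, 7 were tested and 2 were called higher. Over all genes tested, 6.85% were called higher. The count for the region was 1 in each limma fit and 0 with both pairs of A549 inputs. SLC22A18, a transporter gene, had 8.27 and 10.6 CPM in A549 and 37.3 and 33.3 CPM in A549/DDP (log2 fold change 1.91, adjusted p = 0.0162). CD81, a tetraspanin gene, rose by 1.25 (adjusted p = 0.0262). PHLDA2, a placental growth regulator, had a log2 fold change of 1.16 (adjusted p = 0.134), and MRPL23, downstream of H19, one of 0.84 (adjusted p = 0.111). TSSC4 (-0.61, adjusted p = 0.212) and KCNQ1 (-4.26, adjusted p = 0.273, on few counts) went the other way and did not pass the test. CDKN1C, a cell cycle inhibitor gene, had 18, 1, 8 and 0 expected counts and was not tested.

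MIAT had 1.31 and 4.29 CPM in A549 and 1.11 and 0 CPM in A549/DDP, from 43, 152, 33 and 0 expected counts. With a count of 0 in A549/DDP replicate 2 the fitted log2 fold change of -2.33 ± 2.21 rests on few reads (adjusted p = 0.55). Without A549/DDP replicate 1 the remaining A549/DDP library is at 0, and the adjusted p was then 0.045.

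Another list of 27 well-known lncRNAs gives the setting of these values. Of 23 tested, 3 were called lower and none higher by edgeR, and none was higher at an unadjusted p under 0.05, by DESeq2 or by limma. Their median log2 fold change was -0.985, lower than that of the 10 (-0.72). MEG3, an imprinted RNA of another chromosome, had 62.8 and 51.5 CPM in A549 and 1.11 and 0 CPM in A549/DDP (log2 fold change -6.72, adjusted p = 0.0192). CYTOR fell by 3.31 (53.9 and 23.5 CPM against 5.33 and 2.49, adjusted p = 0.0191), and TUG1 fell by 0.93 (230.0 and 164 CPM against 98.6 and 108, adjusted p = 0.0393).

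Of 9 listed RNAs without a poly(A) tail, 5 were tested, and RN7SL1 and its near-identical copy RN7SL2 were called higher. The methods describe poly(A) isolation, while the labels call the input RNA total. RN7SL1, the RNA of the signal recognition particle, was at 39.4 and 35.6 TPM in A549 and at 338 and 619 TPM in A549/DDP (log2 fold change 3.57, adjusted p = 0.00552). RN7SL2, with which reads may be shared, was at 81.8 and 82.9 against 464 and 769 TPM (log2 fold change 2.82, adjusted p = 0.00568). RN7SK (adjusted p = 0.0761), RPPH1 (adjusted p = 0.235) and RMRP (adjusted p = 0.516) did not pass the test. None was called lower (none at an unadjusted p under 0.05, by DESeq2 or by limma), and TERC was listed at 0 in all 4. MALAT1 ends without a classical poly(A) tail and the long form of NEAT1 likewise. MALAT1 and NEAT1 were lower in A549/DDP, and the part of RNA selection in any of these values was not tested.

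In the second pair of A549 inputs the order of levels differed. MALAT1 led with 270.0 and 171 TPM, followed by NEAT1 with 114 and 100.5 TPM and GAS5 with 83.0 and 76.6 TPM, while SNHG1 was at 26.0 and 29.6 TPM and OIP5-AS1 at 0.47 and 0.39 TPM. TPM cannot be compared between the pairs, as mitochondrial genes held most of the counts in this one. In the edgeR fit of A549/DDP against this pair, the log2 fold change of SNHG1 was -1.69 (-1.95 against the first pair) and that of MALAT1 was -5.18 (-0.69 against the first pair). RN7SL2 reached 37758 and 45226 TPM in this pair.

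Effective length, the RSEM estimate of a gene's usable length weighted over its isoforms, was examined in the same tables because it enters TPM. NORAD and KCNQ1OT1 have 1 transcript in the files and were fixed, apart from fragment length: NORAD had 5230.1, 5213, 5220.1 and 5207 bases in the A549 and then the A549/DDP inputs. MALAT1, with 17 transcripts, had 2663 and 2618 bases in A549 and 2019 and 3022 bases in A549/DDP. Its A549/DDP libraries therefore agreed in CPM (316 and 330) and differed in TPM (241 and 169).

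Of the 7 lncRNAs with several transcripts and with reads in all 4 first inputs, 3 had a greater mean effective length in A549/DDP, against 47% of the 12134 tested genes of that kind. GAS5 had 543 and 518 bases in A549 and 632 and 599 in A549/DDP, and SNHG12 had 504 and 533 against 608 and 619. Both differences were without overlap, as for 17.8% of those genes, and were not tested. NEAT1 had 2855 and 2547 bases in A549 and 2394 and 2422 in A549/DDP, far under the span of 22743 bases of the long isoform.

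The m6A-seq files list called peaks for each library with no height or fold, so the marks were compared by place and extent only. The lists held 26320 and 14576 peaks for A549 and 27244 and 10661 peaks for A549/DDP. Of the 10 lncRNAs, 7 had a called peak in at least 1 library, against 57.1% of 16389 expressed genes and 40% of RefSeq lncRNA genes. In all 4 libraries, 3 of the 10 had one (MALAT1, NEAT1 and NORAD), against 13.9% of genes and 6.1% of RefSeq lncRNA genes. These shares and those that follow cover genes of all RNA levels and were not matched to the levels of the 10.

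By library, 5 and 6 of the 10 had a peak in A549 replicates 1 and 2, where 43.8% and 30.6% of genes did. In A549/DDP replicates 1 and 2, 5 and 5 did, against 40.7% and 22.2% of genes. KCNQ1OT1, SNHG12 and MIAT had none in any library, which says only that none was called.

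**Figure D4:**
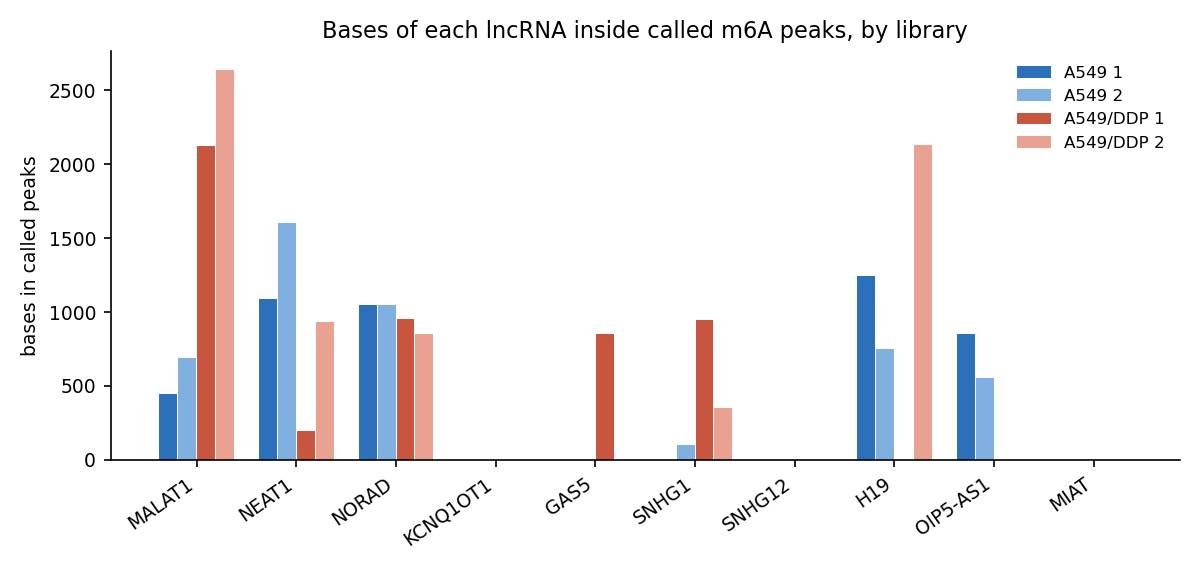
Number of bases of each lncRNA that lay inside called m6A peaks, for each of the 4 m6A-seq libraries; overlapping peaks of a library were counted once. MALAT1 had 443 and 689 bases in A549 and 2127 and 2637 in A549/DDP, OIP5-AS1 had peaks in A549 alone, and H19 had none in A549/DDP replicate 1.

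More bases lay inside peaks in both A549/DDP lists than in either A549 list for 2 lncRNAs (MALAT1 and SNHG1), as for 7.85% of the 9352 genes with a peak. Fewer lay inside peaks for 3 (NEAT1, NORAD and OIP5-AS1), as for 17.8% of those genes. With 2 lists a line no test of these differences was made.

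MALAT1 had 2 and 2 peaks in A549 and 6 and 8 in A549/DDP, covering 443, 689, 2127 and 2637 bases. All lay within 1368 to 5488 bases of the RefSeq gene start, and none was called downstream of that stretch. A total of 246 bases were shared by all 4 libraries, the longest run being the 176 bases at chr11:65500223-65500398. A further 1031 bases lay in both A549/DDP lists and in neither A549 list. So the place was shared and the extent differed, in a gene whose input RNA was lower in A549/DDP. In lists of equal size the covered bases were 344, 689, 687 and 2637, and the lines then overlapped. In 3 of the libraries a peak on the minus strand, named for ENSG00000279576.1, faced the downstream MALAT1 peak, for example at chr11:65502481-65503175 in A549/DDP replicate 2.

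NEAT1 had 5 and 9 peaks in A549, covering 1091 and 1600 bases, and 1 and 3 in A549/DDP, covering 196 and 932. All lay in the first 3450 bases of the gene, the part that the short and the long isoform share. The 196 bases at chr11:65424387-65424582 were in all 4 lists, and 417 bases were in both A549 lists and in neither A549/DDP list. Here the extent was smaller in the line with less input RNA, unlike MALAT1. At a peak p at or below 1e-05 no NEAT1 peak was left in A549/DDP.

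NORAD had the most uniform pattern. A single peak of 1049 bases, at chr20:36049862-36050910, stood in both A549 lists with identical ends, and 2 peaks covered 950.0 and 850.0 bases of the same stretch in the A549/DDP lists. In all 4 the first called base was base 51 of the gene, which directly follows the capitals shown above. A NEAT1 peak in A549 replicate 2 also began at base 51 of its gene, and OIP5-AS1 peaks began 50 bases after a start. The offset is therefore not particular to NORAD, and the part of the peak calling in it was not tested. The 751 bases shared by all 4 make NORAD the lncRNA of the 10 with the largest shared extent. Its A549/DDP peaks carry p-values of 1.2e-05 and 1.3e-05, just over the stricter limit of 1e-05, which removes them.

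**Figure D5:**
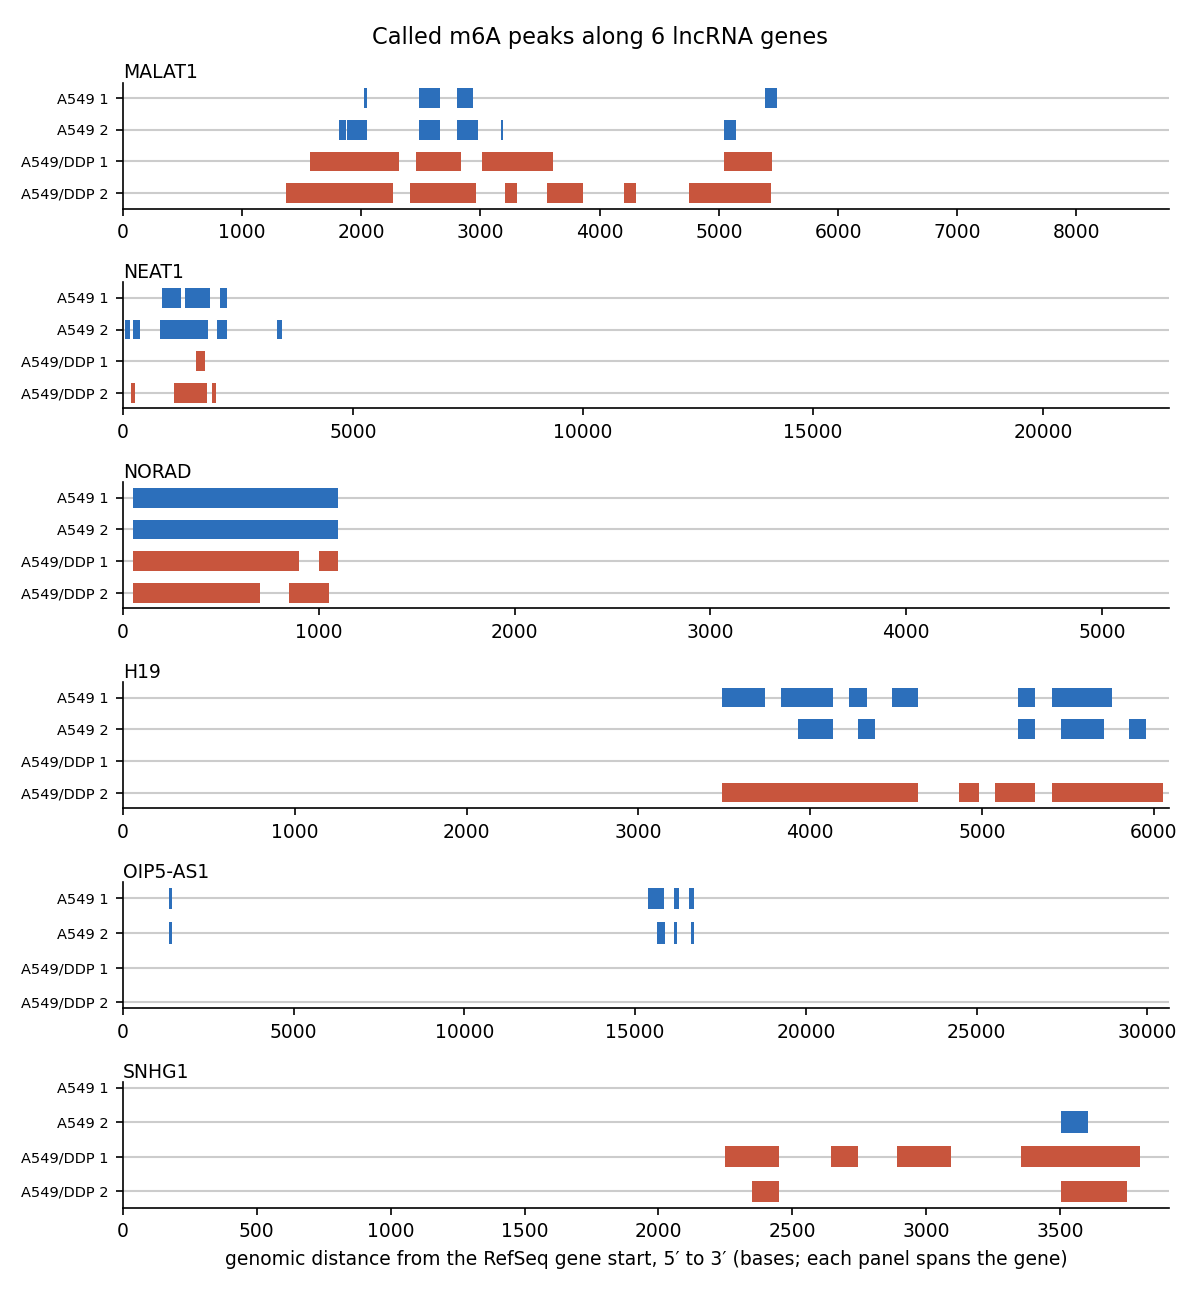
Called m6A peaks along 6 lncRNA genes in 2 A549 (blue) and 2 A549/DDP (red) libraries, drawn as exon blocks against the distance in bases from the RefSeq gene start. Peaks of NORAD began at base 51 in all 4 libraries, those of NEAT1 lay within the first 3450 of 22743 bases, and those of OIP5-AS1 were called in A549 alone.

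OIP5-AS1 had 4 and 4 peaks in A549 and none in A549/DDP, while its input RNA was alike (85.3 to 104 CPM). The 4 places coincided in both A549 lists and shared 503 bases, among them the 101 bases at chr15:41284040-41284140 that follow the start shown above. Their p-values were weak, from 0.0048 to 0.0089, and none was left at p at or below 1e-05 or in lists of equal size.

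H19 had 6 and 5 peaks in A549, none in the first A549/DDP list and 3 in the second, covering 1244, 748, 0 and 2133 bases. The library with no call is the m6A-seq partner by number of the input with the most H19 RNA (56.8 CPM), though the labels do not say that libraries of a number come from the same culture. Over the MIR675 hairpin, peaks covered 32 of its 73 bases in A549 replicate 1, all 73 in the second A549/DDP list and 0 in the other libraries. In A549 replicate 1 the covered part held all 20 bases of miR-675-3p and not the GGACU shown in capitals. All H19 peaks of a list carry 1 shared p-value (6.3e-08, 7.1e-08 and 5.1e-07), so single H19 peaks cannot be ranked.

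Of the snoRNA hosts, SNHG1 had 0 and 1 peaks in A549 and 4 and 2 in A549/DDP, covering 0, 100, 943 and 348 bases, all in the 3′ part of the gene from base 2250 on. In lists of equal size the covered bases were 0, 100, 0 and 348, and the lines then overlapped. No SNHG1 peak had a p at or below 1e-05. GAS5 had 5 peaks covering 850.0 bases in A549/DDP replicate 1 (each listed at 1.9e-06) and none elsewhere, so its peaks rest on 1 library.

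Merged over libraries, the peaks of the 10 lncRNAs formed 26 regions. Of these, 4 were called in all 4 libraries (2 in MALAT1, 1 in NEAT1 and 1 in NORAD), against 8.72% of the 37903 merged regions of all genes. A further 5 were called in both A549 lists alone (4 in OIP5-AS1 and 1 in NEAT1), against 6.12%, and 1 in both A549/DDP lists alone, in SNHG1, against 3.09%. Most regions therefore differed between libraries of the same line.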

How the data were processed

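RNA of A549 and A549/DDP cells was measured in 6 input and 4 m6A-seq libraries, grouped by their labels. RIP-seq data and signal tracks were not used here. For every input the deposited table gives, gene by gene, expected counts, TPM, FPKM, length and effective length. The submitters' processing notes name hg38, STAR, RSEM and bedtools, with no versions. The deposited expected counts are estimates that were not normalized, and the deposited TPM and FPKM values were scaled by the authors for length and depth. For each m6A-seq library the authors deposited peaks with exon blocks and a p-value, whose kind (raw or adjusted) and caller are not given in the sources used here. In 41.2% to 47.7% of genes with several peaks, all peaks of a list carry 1 p-value. For A549 m6A-seq, replicate numbers follow the labels, which are exchanged relative to the numbers in the file names.

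After rounding, expected counts passed filterByExpr and TMM scaling, and edgeR 4.0.16 in R 4.3.3 gave quasi-likelihood tests (glmQLFit, glmQLFTest) without a replicate block, adjusted by Benjamini-Hochberg over 16406 genes. Fold changes are A549/DDP over A549 on the log2 scale, with an SE approximated from the F statistic. The script was tested on simulated data. DESeq2 1.42.0 and limma 3.58.1 on log2(TPM + 1) or log2(TPM + 0.1), for genes with a mean of at least 1 TPM, were alternatives, as were no filter, upper-quartile scaling, the replicate block, the second pair or both pairs of A549 inputs, and each library left out. Totals were 29225501 to 35286514 counts, and the common biological coefficient of variation over the 16406 genes was 0.656. That value covers genes of all levels and is not the spread of the abundant members.

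Bases inside peaks were counted once per library from the exon blocks, 1-based, and peaks sharing at least 1 base on a strand were merged over libraries. The 16389 expressed genes are the tested identifiers without version. Start windows and microRNAs were read from RefSeq tables. Members and lists were chosen with earlier results of these data known. Counts of called genes on a list are a description, and the shares over all genes were not matched for level. All members, listed neighbours and, per list, up to 4 genes with an adjusted p under 0.05 and the largest fold change were named. Results for some genes on the lists are not reported here.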

Additional observations from a re-analysis of the deposited data

How the results depend on the processing

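Replicate numbers are shared by the lines, and deviations of libraries with the same number correlated at 0.021 over genes. With 2 libraries a line this is a single contrast, so it cannot show whether the numbers pair the libraries. The labels do not say so either. With the replicate block 3536 genes were called in place of 2437, 4 members lower and 1 higher (KCNQ1OT1, log2 fold change 2.29, adjusted p = 0.0372).

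Genes called numbered 4312 with DESeq2, 4010 with no filter, 3758 with the second pair of A549 inputs, 677 with both pairs, 1492 with limma on log2(TPM + 1) and 1177 on log2(TPM + 0.1), and 2052 to 3809 with 1 library left out. Leaving out a library leaves a line with 1 library, which the fit assumes to vary like the other line. Members called lower numbered 4, but 1 with both pairs, 3 with limma on log2(TPM + 1) and 2 on log2(TPM + 0.1), 6 with the second pair, and 2 to 4 with 1 library left out. Members called higher numbered 0, but 2 with DESeq2, 2 with no filter, 1 with the second pair, and 0 to 2 with 1 library left out. The second pair shifted the median of all genes by 0.80 (log2). NORAD turned to -1.08 with the second pair and -0.74 with both pairs, and OIP5-AS1 to -0.053 and -0.054 in the limma fits. With 1 library left out, OIP5-AS1 ranged from -0.018 (without A549 replicate 1) to 0.266. The causes were not tested.

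At a peak p at or below 1e-05, members with a peak in every library fell from 3 to 0, merged regions in every library from 4 to 0 and those in A549 alone from 5 to 3. With an overlap of at least 50%, regions in A549/DDP alone numbered 2. In lists of equal size (10661 peaks), 1 member had a peak in every library, and regions numbered 17, with 1 in every library, 1 in A549 alone and 0 in A549/DDP alone. With 1 list left out, regions in every library numbered 4 to 7, in A549 alone 5 to 9, and in A549/DDP alone 1 to 8. The number of members with a higher level per length in A549/DDP (3) or a greater effective length (3) was 3 or 4 under each alternative run. Without a peak height, depth limits what a missing call can say, and KCNQ1OT1 and MIAT rest on few reads.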
